A study of Mus musculus with 12 samples.

Results

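The 41 genes described here encode the proteins that copy DNA and the enzymes that keep its building blocks in supply. They were listed by name for their known roles, with earlier results of these libraries known, and all 41 were found among the 19212 genes of the deposited table. By role, 11 act in origin licensing, 6 in helicase assembly and firing, 8 are polymerase and primase subunits, 7 belong to the clamp, its loader and the single-strand binding protein, 5 supply nucleotides and 4 act in strand maturation and chromatin copying. Every member passed the filter on low counts in both comparisons, and the lowest count of a member in any library was 9, for Orc1 in SFD@M replicate 1.

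The series measured messenger RNA by sequencing in 12 mouse libraries, 4 groups of 3, all labelled as lung cancer tissue. In the first experiment, LLC (Lewis lung carcinoma) cells, a mouse lung tumour line, carried a lentivirus for OTUB1 knockdown (OTUB1_KD) or a negative control lentivirus (NC) before tumours were made from them in the lungs of mice. In the second, mice with tumours received SFD@M, a preparation that the labels name and do not describe, or physiological saline (Blank), and the titles of the Blank libraries carry codes that begin with KD. The labels give neither sex, strain and age of the mice nor the dose of SFD@M. Nor do they tie each library to its own animal, so every p-value below reflects how far these particular libraries differ, and that spread may be technical.

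A cell copies its genome during S phase. Origins are licensed beforehand by the origin recognition complex, Cdc6 and Cdt1, which load the MCM ring onto DNA, and geminin (Gmnn) holds Cdt1 in check afterwards. Mcm10, Cdc45 and the GINS complex turn the loaded ring into a working helicase, polymerases copy the strands along the sliding clamp PCNA, and ribonucleotide reductase and its companion enzymes provide deoxynucleotides. Most of these genes are transcribed chiefly in cells that are dividing, many of them under E2F transcription factors, and adult lung holds few such cells.

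Because E2F factors are the best known common regulators of these genes, the bases just upstream of their start sites were searched for the E2F core letters TTCCCGC and TTGGCGC on both strands. RefSeq promoter windows (GRCm38.p6, 250 bases before the start) were held for 32 of the 41 members, 38 windows in all. Either core was found in 11 of these 38 windows (28.9%), against 1845 of 32851 windows of the same length over all genes (5.62%). The letters CCAAT were found in 22 of 38 windows (57.9%), against 33.8% over all genes. A match is a description of the letters and not a binding site. The windows of the 3 members that held more than 1 E2F core are shown because they carry the most matches, with the cores in capitals. They lie at chrX:93632156-93632405 on the minus strand for Pola1, the catalytic subunit of polymerase alpha, at chr8:75109259-75109508 on the plus strand for Mcm5 and at chr1:128359706-128359955 on the minus strand for Mcm6, both MCM ring subunits.
Pola1: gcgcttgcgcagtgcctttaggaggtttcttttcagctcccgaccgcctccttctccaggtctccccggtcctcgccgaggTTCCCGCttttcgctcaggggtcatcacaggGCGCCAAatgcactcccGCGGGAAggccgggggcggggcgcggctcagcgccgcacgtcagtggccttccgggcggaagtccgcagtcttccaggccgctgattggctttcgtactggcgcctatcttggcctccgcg
Mcm5: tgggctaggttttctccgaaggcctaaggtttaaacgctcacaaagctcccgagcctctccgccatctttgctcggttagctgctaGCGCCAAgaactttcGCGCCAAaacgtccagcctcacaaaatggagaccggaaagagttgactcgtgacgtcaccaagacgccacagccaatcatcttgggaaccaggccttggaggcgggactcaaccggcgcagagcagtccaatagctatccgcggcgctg
Mcm6: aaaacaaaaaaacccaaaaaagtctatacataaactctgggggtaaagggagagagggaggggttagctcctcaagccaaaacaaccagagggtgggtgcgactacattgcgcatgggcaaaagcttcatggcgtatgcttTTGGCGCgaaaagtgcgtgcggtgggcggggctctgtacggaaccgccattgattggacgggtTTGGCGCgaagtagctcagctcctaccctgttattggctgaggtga
In Pola1 3 cores lay 121 to 169 bases before the start, in Mcm5 2 cores lay 149 to 164 bases before it, and in Mcm6 2 cores lay 46 to 109 bases before it.

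Library totals ran from 16062806 to 18028828 counts. Otub1, the gene targeted in the first experiment, stood at 58.6, 49.3 and 71.2 CPM (counts scaled to an equal library total) in the libraries labelled OTUB1_KD and at 76.2, 73.9 and 69.8 CPM in NC, groups that overlap, replicate 3 lying within the NC range, and the difference was not called (log2 fold change -0.36 ± 0.18 (SE), edgeR adjusted p = 0.112). Most markers of lung epithelium, leukocytes, vessels, fibroblasts and red cells moved with the groups: 15 of 16 were at 1 CPM or more in every library labelled OTUB1_KD and in every SFD@M library, against 3 of 16 in NC and 3 of 16 in Blank. Their summed level was 26945 to 56988 CPM in OTUB1_KD against 124 to 132 CPM in NC, and 53173 to 54799 CPM in SFD@M against 180.0 to 186 CPM in Blank. The leukocyte marker Ly6g was not called in OTUB1_KD (log2 -1.17 ± 0.51, edgeR adjusted p = 0.0804) or in SFD@M (1.04 ± 0.45, adjusted p = 0.0604). Cd3e was at 0 in every NC and Blank library, and so was Cdh5 in NC. The Y-linked genes Ddx3y, Kdm5d, Eif2s3y and Uty together reached 36.9% of the NC mean in OTUB1_KD replicate 1, 0.184% in replicate 2 and 7.08% in replicate 3, and 0.0475% to 0.442% of the Blank mean in SFD@M. Pairs of NC or Blank libraries differed by a chi-square of 1.32 to 2.00 per degree of freedom, against 16.8 to 31.7 between SFD@M libraries and 96.9 to 160.2 between OTUB1_KD libraries. The part of all these in the results below was not tested, and in bulk samples fewer cells of a type and less RNA per cell cannot be told apart.

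Replication genes were lower in both experiments. In the libraries labelled OTUB1_KD 37 of the 41 members fell against NC and 0 rose, where 25.8% of all genes tested were called lower and 39.9% higher. The median log2 fold change was -1.67, against 0.16 over all genes tested, and the members ranged from -2.51 for Exo1 to -0.62 for Rfc2. In SFD@M all 41 members fell against Blank, where 38.7% of all genes tested were called lower, with a median log2 fold change of -3.43, against 0.23 over all genes tested, and a range from -6.75 for Exo1 to -1.15 for Gins4. For all 41 members every OTUB1_KD library lay below every NC library, as it did for 32.6% of genes tested, and every SFD@M library lay below every Blank library, as it did for 38.9%. Calls are edgeR quasi-likelihood tests at a Benjamini-Hochberg adjusted p under 0.05 over all genes tested. The other 4 members, Mcm5, Gins1, Tyms and Pold1, were called lower by DESeq2, at adjusted p = 0.0367 to 0.0486. With a library left out the count of 37 became 25 without OTUB1_KD replicate 3, 38 without replicate 1, 40 without replicate 2 and 28 to 30 without an NC library. Of the members given with values below, Mcm3, Mcm6, Cdc45, Mcm10, Rrm2, Uhrf1, Exo1 and Tk1 lost the call without OTUB1_KD replicate 3, at edgeR adjusted p = 0.0529 to 0.108. Pold2 lost it without OTUB1_KD replicate 1 and without each NC library, at 0.0588 to 0.0840, as did Uhrf1, Rfc2, Tk1 and Mcm2 without each NC library, at 0.0554 to 0.0803, Rfc3 without NC replicate 1 or 2 and Rrm2 without NC replicate 1.

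**Figure D1:**
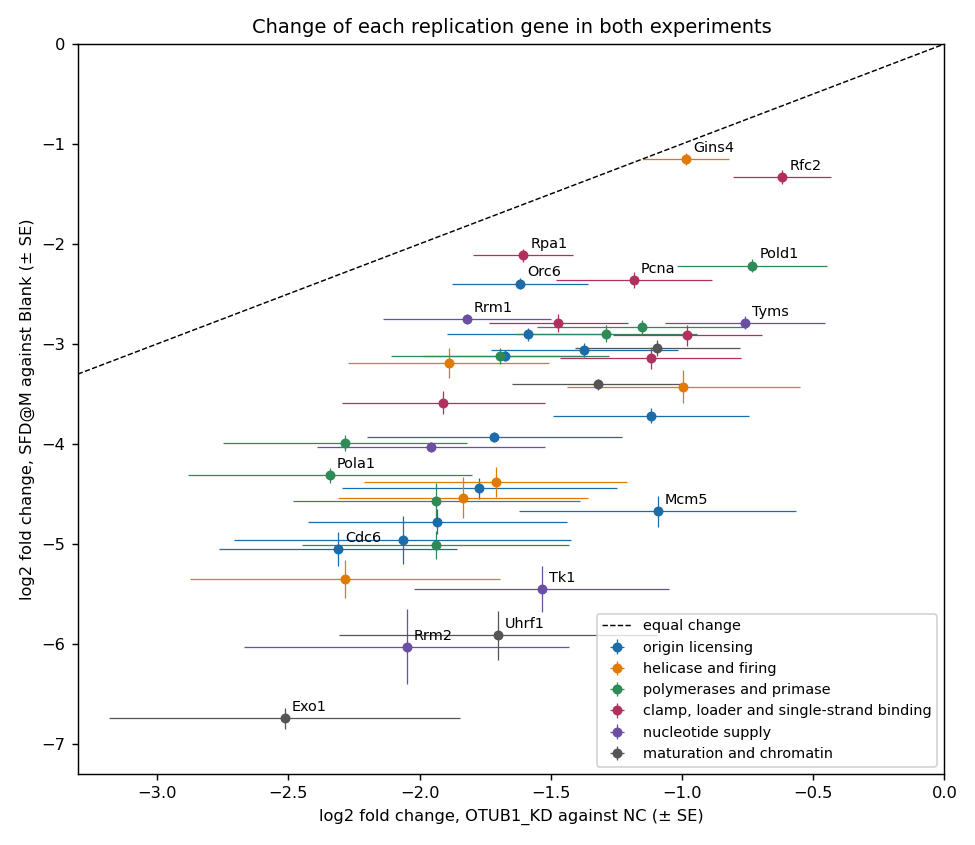
Log2 fold change of each of the 41 members in OTUB1_KD against NC (horizontal axis) and in SFD@M against Blank (vertical axis), with bars of 1 SE and colours for the roles; the dashed line marks equal change. Every member lies below the line, from Gins4 (-0.99 and -1.15), close to it, to Exo1 (-2.51 and -6.75).

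The plot of both fold changes sets out the order of the members. Over the 41 genes the log2 fold changes of the experiments, which share no library, had a Spearman's rho of 0.679 and a Pearson's r of 0.688, given as a description, since the genes share their libraries.

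Among the origin licensing genes, 10 of 11 fell in OTUB1_KD and 11 of 11 in SFD@M. Cdc6, the loader that recruits the MCM ring, had 23.4, 5.95 and 12.3 CPM in OTUB1_KD against 65.3, 66.1 and 66.0 CPM in NC, and 1.88, 2.53 and 3.65 CPM in SFD@M against 85.5, 90.4 and 84.8 CPM in Blank. Its falls of log2 -2.31 ± 0.45 (SE, edgeR adjusted p = 0.00407) and -5.05 ± 0.17 (adjusted p = 9.6e-08) left no overlap between groups in either experiment. Mcm6 had 227, 52.8 and 119.7 CPM in OTUB1_KD against 423, 419 and 412 CPM in NC, and 34.7, 35.0 and 35.3 CPM in SFD@M against 517, 528 and 517 CPM in Blank. Mcm3 had 176, 39.4 and 101 CPM in OTUB1_KD against 384, 382 and 387 CPM in NC, and 18.3, 24.2 and 18.3 CPM in SFD@M against 537, 547 and 543 CPM in Blank. The SFD@M libraries of these ring subunits lay close together, while OTUB1_KD replicate 2 lay far below replicate 1. Mcm5 was the licensing gene not called in OTUB1_KD: it had 93.4, 20.0006 and 93.1 CPM there against 140.0, 142 and 141 CPM in NC (log2 -1.09 ± 0.53, edgeR adjusted p = 0.106). Without the low replicate 2 its log2 fold change was -0.66, with an adjusted p of 0.00545. In SFD@M it had 7.40, 9.94 and 12.1 CPM against 248, 237 and 248 CPM in Blank, a fall of log2 -4.68 ± 0.15 (adjusted p = 8.1e-08). Gmnn, which encodes the licensing inhibitor geminin, had 35.7, 16.2 and 17.97 CPM in OTUB1_KD against 63.5, 66.2 and 70.6 CPM in NC, and 10.5, 10.3 and 10.8 CPM in SFD@M against 77.7, 79.3 and 72.9 CPM in Blank, so the gene of the inhibitor fell too.

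Of the helicase and firing genes 5 of 6 fell in OTUB1_KD and 6 of 6 in SFD@M. Cdc45, which binds the MCM ring with GINS, had 32.7, 6.76 and 20.4 CPM in OTUB1_KD against 61.9, 60.7 and 64.8 CPM in NC, and 2.94, 3.35 and 4.89 CPM in SFD@M against 75.7, 76.1 and 75.2 CPM in Blank. Mcm10, a firing factor, had 26.1, 3.93 and 13.2 CPM in OTUB1_KD against 65.6, 65.7 and 70.2 CPM in NC, and 1.06, 2.24 and 2.24 CPM in SFD@M against 76.6, 73.3 and 70.7 CPM in Blank. Both lay lowest in replicate 2 among the OTUB1_KD libraries, and in neither experiment did the groups overlap. Gins4 was the member that fell least in SFD@M, with 23.0, 21.2 and 22.5 CPM against 49.7, 47.4 and 46.9 CPM in Blank (log2 -1.15 ± 0.06, edgeR adjusted p = 9.1e-07). In OTUB1_KD it had 30.1, 24.9 and 21.5 CPM against 49.7, 45.8 and 49.1 CPM in NC (log2 -0.99 ± 0.16, adjusted p = 0.00188), levels close to those in SFD@M. Gins1 was not called in OTUB1_KD, with 10.6, 2.83 and 6.66 CPM against 12.1, 13.4 and 12.8 CPM in NC (log2 -0.995 ± 0.44, adjusted p = 0.0842).

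All 8 polymerase and primase genes fell in SFD@M and 7 of 8 in OTUB1_KD. Pola1 had 55.3, 11.1 and 22.0 CPM in OTUB1_KD against 142, 145 and 141 CPM in NC (log2 -2.34 ± 0.54, edgeR adjusted p = 0.00796), and 9.16, 9.71 and 11.01 CPM in SFD@M against 195, 191 and 194 CPM in Blank (log2 -4.32 ± 0.07, adjusted p = 6.9e-09). OTUB1_KD replicate 2 came near the SFD@M level, and replicate 1 stayed well above it. Pold1, the catalytic subunit of polymerase delta, had 38.3, 20.8 and 45.0 CPM in OTUB1_KD against 53.4, 55.2 and 57.4 CPM in NC and was not called (log2 -0.73 ± 0.29, adjusted p = 0.0570). In SFD@M it fell to 13.7, 14.2 and 13.01 CPM, against 60.4, 62.4 and 62.7 CPM in Blank (log2 -2.22 ± 0.06, adjusted p = 4.4e-08). Pold2, the regulatory subunit that binds it, had 48.3, 18.04 and 57.1 CPM in OTUB1_KD against 83.9, 91.9 and 87.6 CPM in NC, and 14.6, 14.5 and 13.3 CPM in SFD@M against 103, 92.6 and 98.9 CPM in Blank. Both polymerase delta genes were highest in OTUB1_KD replicate 3, whereas Pola1 was highest in replicate 1.

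The clamp, loader and single-strand binding genes fell in 7 of 7 cases in each experiment and by less than the other roles, with median log2 fold changes of -1.18 in OTUB1_KD and -2.79 in SFD@M. Pcna, the sliding clamp, had the highest TPM (a level corrected for transcript length) of the members, at 199.99 ± 91.9 in OTUB1_KD against 516 ± 8.64 in NC, and 113 ± 8.70 in SFD@M against 704 ± 16.3 in Blank (mean ± SD, n = 3 each). In counts it had 216, 97.6 and 131 CPM in OTUB1_KD against 327, 318 and 319.7 CPM in NC, and 84.4, 78.3 and 94.2 CPM in SFD@M against 426, 421 and 439 CPM in Blank. Rpa1, the large subunit of the single-strand binding protein, had 126, 86.3 and 98.0 CPM in OTUB1_KD against 307, 300.0 and 296 CPM in NC, and 75.8, 69.6 and 65.2 CPM in SFD@M against 292, 294 and 303 CPM in Blank. Its OTUB1_KD libraries lay close together, and its fall there had the smallest adjusted p of the members (log2 -1.61 ± 0.19, edgeR adjusted p = 0.000431). Rfc2, a small subunit of the clamp loader, fell least in OTUB1_KD, to 53.3, 39.1 and 58.8 CPM, against 76.0, 73.5 and 72.8 CPM in NC (log2 -0.62 ± 0.19, adjusted p = 0.0234). In SFD@M it had 29.6, 31.7 and 34.6 CPM against 75.9, 79.7 and 79.5 CPM in Blank (log2 -1.33 ± 0.07, adjusted p = 9.1e-07).

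Of the nucleotide supply genes, 4 of 5 fell in OTUB1_KD and 5 of 5 in SFD@M, and here the subunits of a single enzyme parted. Rrm2, the small subunit of ribonucleotide reductase that is made in S phase, had 143, 20.4 and 64.8 CPM in OTUB1_KD against 302, 301 and 300.4 CPM in NC, and 2.99, 7.53 and 11.7 CPM in SFD@M against 482, 469.6 and 466 CPM in Blank. Rrm1, the large subunit, had 119.6, 52.8 and 62.0 CPM in OTUB1_KD against 271, 258 and 261 CPM in NC, and 48.9, 48.8 and 45.3 CPM in SFD@M against 311, 315 and 312 CPM in Blank. The log2 fold change in SFD@M was -6.03 ± 0.38 for Rrm2 (edgeR adjusted p = 2.6e-06) and -2.75 ± 0.05 for Rrm1 (adjusted p = 1.1e-08), while in OTUB1_KD it was -2.05 ± 0.62 (adjusted p = 0.0233) and -1.82 ± 0.32 (adjusted p = 0.00254). Tk1, the thymidine kinase of the cytosol, had 44.1, 9.83 and 32.1 CPM in OTUB1_KD against 83.7, 77.7 and 77.6 CPM in NC, and 1.41, 3.35 and 3.65 CPM in SFD@M against 118, 121 and 120.3 CPM in Blank. Tyms, which makes thymidylate, was not called in OTUB1_KD, with 29.7, 13.01 and 25.8 CPM against 35.4, 38.6 and 37.4 CPM in NC (log2 -0.76 ± 0.30, adjusted p = 0.0610), and fell in SFD@M to 10.6, 11.4 and 10.5 CPM, against 71.9, 72.0 and 75.03 CPM in Blank (log2 -2.79 ± 0.06, adjusted p = 1.9e-08). The enzymes of thymidine supply differed in how low they reached in SFD@M, Tk1 at 2.34% and Tyms at 14.8% of the Blank mean.

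The 4 maturation and chromatin genes fell in both experiments. Exo1, a 5' exonuclease of repair and maturation, had 28.7, 3.41 and 10.6 CPM in OTUB1_KD against 78.9, 77.7 and 76.9 CPM in NC (log2 -2.51 ± 0.67, edgeR adjusted p = 0.0141). In SFD@M it had 0.822, 0.942 and 1.18 CPM against 102, 103 and 105 CPM in Blank (log2 -6.75 ± 0.10, adjusted p = 4.9e-09), the largest fall of the members in either experiment. These SFD@M levels rest on few counts, so this SE, taken from the test statistic, is likely too small. Uhrf1, which marks newly copied DNA for maintenance methylation, had 121, 17.7 and 79.5 CPM in OTUB1_KD against 226, 229 and 226 CPM in NC, and 2.82, 5.65 and 7.07 CPM in SFD@M against 309.7, 304 and 301 CPM in Blank. Lig1, the ligase that seals Okazaki fragments, had 55.6, 21.5 and 42.0 CPM in OTUB1_KD against 93.7, 94.96 and 95.8 CPM in NC, and 13.3, 13.7 and 13.4 CPM in SFD@M against 141, 141 and 136 CPM in Blank. Lig1 stood at 9.68% of Blank in SFD@M, Uhrf1 at 1.70% and Exo1 at 0.949%.

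If the members had all been diluted alike by material that held none of their transcripts, each would stand at the same share of its control in a given library. Material with its own level of each member would give unequal shares, so departures from 1 share do not decide about dilution. The common share, the median over the 41 members of the CPM relative to the control mean, was 52.3%, 17.7% and 32.6% in OTUB1_KD replicates 1, 2 and 3, and 9.56%, 9.30% and 8.54% in SFD@M replicates 1, 2 and 3. Around it the members spread 2.33-fold in OTUB1_KD replicate 1, from Cdc6 at 35.5% to Gins1 at 82.8%. The spread was 12.0-fold in replicate 2, from Exo1 at 4.38% to Rfc2 at 52.8%, and 5.94-fold in replicate 3, from Exo1 at 13.7% to Pold1 at 81.3%. In SFD@M it was 75.5-fold, 48.5-fold and 41.1-fold in replicates 1, 2 and 3, with Gins4 at the top each time, at 44.1% to 47.8%, and Rrm2 or Exo1 at the bottom, at 0.634% to 1.14%.

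**Figure D2:**
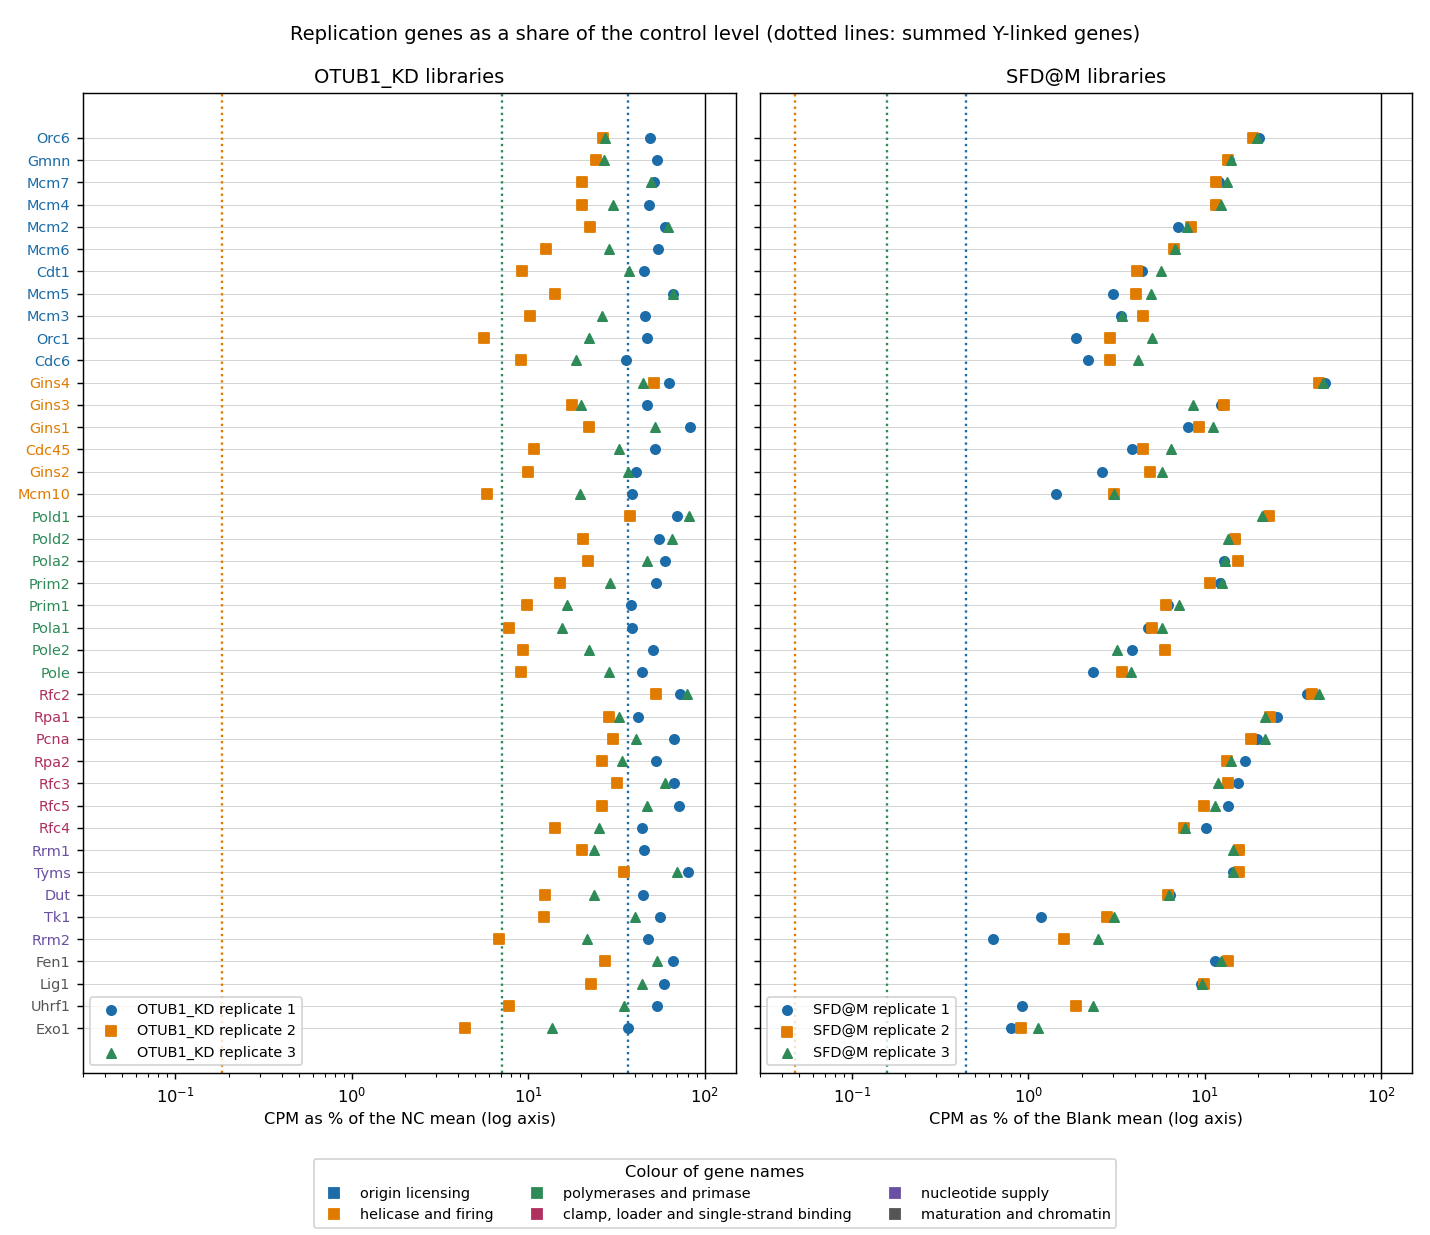
CPM of each member as a percentage of the control mean (log axis) in the 3 OTUB1_KD libraries relative to NC (left) and the 3 SFD@M libraries relative to Blank (right), 1 marker per library, with dotted lines at the summed Y-linked share of the same library and a solid line at 100%. Members spread 2.33-fold in OTUB1_KD replicate 1 and over 40-fold in each SFD@M library. Every member lies above the dotted lines in SFD@M, which stand at 0.0475% to 0.442%. The median over genes tested with at least 1 CPM in Blank, 85.6% to 87.9%, lies above them too.

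Whether a member departed from the common share was tested by scaling each library to that share and refitting all genes. In SFD@M 18 of 41 members stood above it, 18 below it and 5 were not called (Mcm2, Gins1, Gins3, Rfc4 and Lig1). Of these, Mcm2 was called below it with the scale taken from the summed counts of the members (edgeR adjusted p = 0.00393) and without SFD@M replicate 3 (0.0181). On that scale 95.8% of all genes tested stood above and 2.56% below, since the scale puts the replication genes at no change. So many calls leave the adjusted p close to the unadjusted p (Mcm2, 0.0593 and 0.0584 by edgeR). The scale is the median of these same members, so a near-even split above and below it follows by construction. Gins4 stood furthest above (log2 2.35 ± 0.09, edgeR adjusted p = 3.0e-08), before Rfc2 (2.17 ± 0.11), Rpa1 (1.38 ± 0.06), Pold1 (1.27 ± 0.08), Pcna (1.14 ± 0.10) and Orc6 (1.10 ± 0.08), a subunit of the origin recognition complex. Exo1 stood furthest below (-3.26 ± 0.16, adjusted p = 1.7e-07), before Rrm2 (-2.52 ± 0.39), Uhrf1 (-2.41 ± 0.28), Tk1 (-1.95 ± 0.29), Mcm10 (-1.86 ± 0.25), Cdc6 (-1.55 ± 0.23), Pole (-1.51 ± 0.19), the catalytic subunit of polymerase epsilon, and Orc1 (-1.47 ± 0.31). By role, 6 of the 7 clamp, loader and single-strand binding genes stood above and 0 below, while among the licensing genes 4 stood above and 6 below. In these SFD@M libraries the falls, from Gins4 to Exo1, therefore did not follow 1 common share.

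In OTUB1_KD the same test called 1 of 41 members above the common share, Rfc2 (log2 1.18 ± 0.50, edgeR adjusted p = 0.0351), and 0 below, where 75.2% of all genes tested stood above and 1.06% below. At an unadjusted p under 0.05 there were 2 members, against 11569 of 14785 genes tested, and DESeq2 called 2 above and 1 below. The fit averages libraries that are each scaled to their own common share, around which the members spread unlike. Its counts rested on single libraries: without replicate 2 it called 9 members above and 5 below, and without replicate 1 it called 6 above and 7 below. The call of Rfc2 was lost with OTUB1_KD replicate 3 or any NC library left out, at adjusted p = 0.0806 to 0.161. The largest departures that were not called were Exo1 (-1.12 ± 0.54, adjusted p = 0.0562) and Pold1 (0.98 ± 0.51, adjusted p = 0.0762). The SE, from 0.48 to 0.67 over the members, set what these 3 libraries could detect.

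Subunits of the same complex departed from each other most in SFD@M. Ribonucleotide reductase stood at 15.2% of Blank for Rrm1 and 1.57% for Rrm2, 9.72-fold apart, and GINS at 46.3% for Gins4 and 4.40% for Gins2, 10.5-fold apart. The small clamp loader subunits ran from 40.8% for Rfc2 to 8.53% for Rfc4, 4.78-fold. The origin recognition complex members Orc6 and Orc1 stood at 19.5% and 3.26%, 5.97-fold apart. Orc2, Orc3, Orc4 and Orc5, which are not members, stood above both, at 20.4%, 61.9%, 47.4% and 47.7% of Blank. The MCM ring was closer, from 12.3% for Mcm7 to 3.74% for Mcm3, 3.28-fold. Closest were the polymerase epsilon members, Pole2 at 4.31% and Pole at 3.18%. The whole polymerase was not so close, since its subunits Pole3 and Pole4, which are not members, stood at 49.8% and 26.3% of Blank. In OTUB1_KD the mean shares of the reductase and GINS pairs lay nearer, at 29.7% for Rrm1 and 25.2% for Rrm2, and at 52.9% for Gins4 and 29.2% for Gins2. The library that stood apart was OTUB1_KD replicate 2, where Rrm1 stood at 20.1% and Rrm2 at 6.78% of NC. In replicate 3 the MCM ring itself parted, with Mcm5 at 66.0%, Mcm2 at 61.8% and Mcm7 at 49.5% of NC, and Mcm4 at 30.0%, Mcm6 at 28.6% and Mcm3 at 26.2%.

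**Figure D3:**
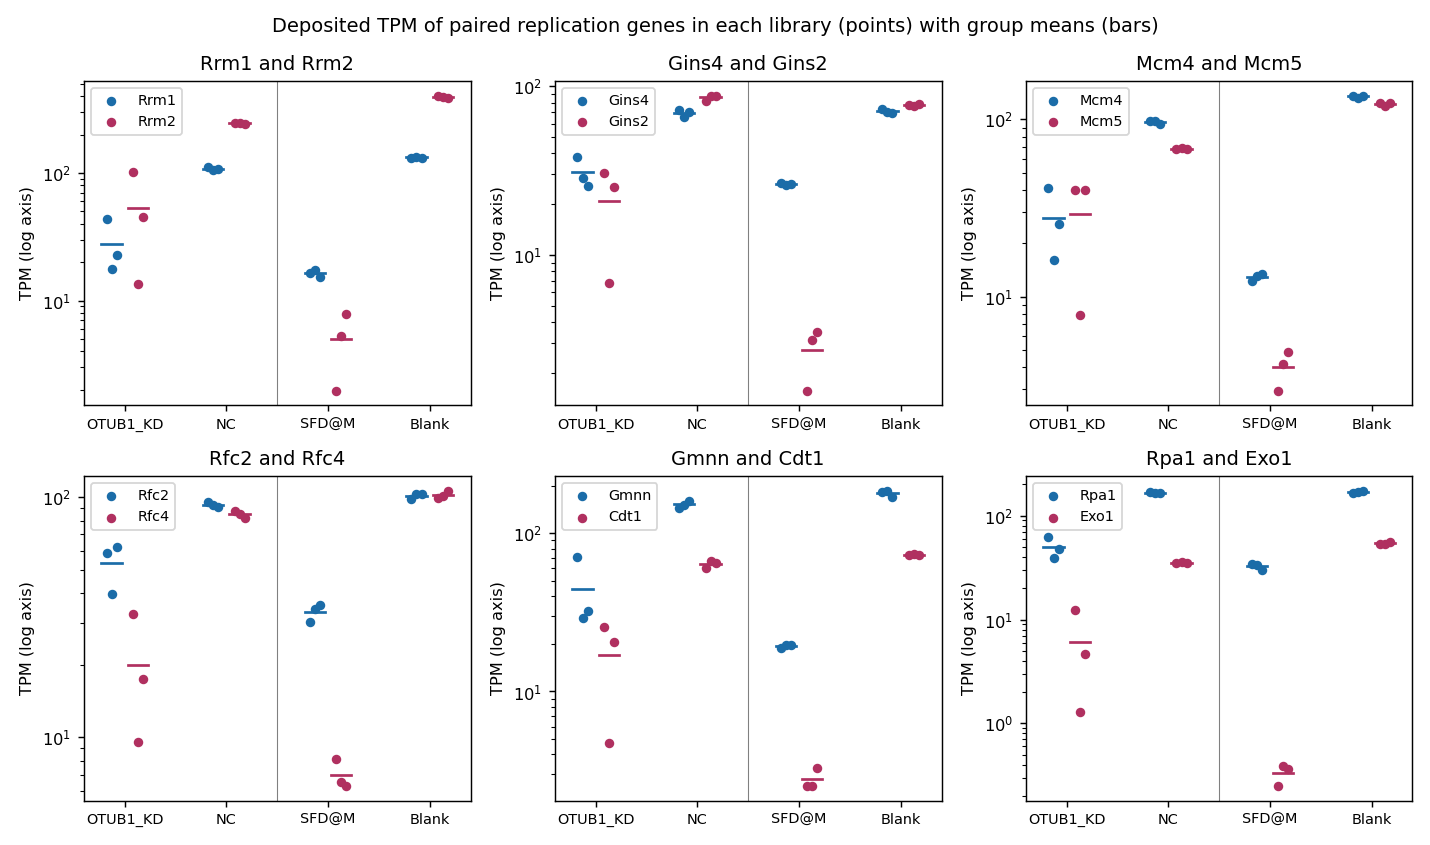
TPM (log axis) of 6 pairs of replication genes in each library (points), with group means (bars), for OTUB1_KD and NC and for SFD@M and Blank. Rrm2 lies above Rrm1 in NC and Blank and below it in all 3 SFD@M libraries, while Mcm5 lies below Mcm4 in every SFD@M, NC and Blank library.

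Levels per transcript length show the same parting, as the plot of paired genes sets out, and the order of Rrm2 and Rrm1 and that of Gins2 and Gins4 changed between SFD@M and Blank. Rrm2 averaged 5.02 ± 2.94 TPM and Rrm1 16.4 ± 0.940 TPM in SFD@M, whereas in Blank Rrm2 averaged 395 ± 7.37 TPM and Rrm1 132 ± 0.920 TPM (mean ± SD, n = 3 each). Gins4 averaged 26.4 ± 0.280 TPM and Gins2 2.73 ± 1.02 TPM in SFD@M, against 71.1 ± 2.26 and 77.5 ± 0.809 TPM in Blank. Gmnn averaged 19.5 ± 0.514 TPM and Cdt1 2.79 ± 0.436 TPM in SFD@M, against 179 ± 7.68 and 73.2 ± 1.12 TPM in Blank, so the inhibitor kept a larger share (13.7%) of its CPM than the loader it binds (4.71%). Of the members, 14 had 1 listed transcript and 27 had several, and the transcript with most counts was the same in OTUB1_KD and NC for 27 of these 27 and in SFD@M and Blank for 25, Exo1 and Orc1 being the exceptions at their low SFD@M counts.

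Markers of dividing cells were mostly lower in both experiments too, but they did not follow the members in every library. The median share of 23 mitosis genes, a list that holds no member, was 41.5%, 9.21% and 17.1% in OTUB1_KD replicates 1, 2 and 3 and 1.05%, 2.75% and 3.97% in the SFD@M replicates, below that of the replication genes in each library. Of these 23, 22 fell in OTUB1_KD and 23 in SFD@M, and 22 stood below the members' common share in SFD@M. Mki67, a marker of cycling cells, stood at 29.8%, 10.3% and 6.84% of NC and at 1.19%, 3.85% and 4.78% of Blank. Across SFD@M replicates 1 to 3 the mitosis median and Mki67 rose, while the common share of the members went from 9.56% to 8.54%. In OTUB1_KD the mitosis median and the common share were lowest in replicate 2, and Mki67 in replicate 3. All 41 members stood above the Y-linked share in OTUB1_KD replicates 2 and 3 and in every SFD@M library, and 39 did in OTUB1_KD replicate 1, where Cdc6 and Exo1 did not. Over genes tested with at least 1 CPM in the control, the median share was 96.4%, 91.6% and 87.4% in OTUB1_KD replicates 1, 2 and 3. In SFD@M it was 85.6% to 87.9%. Most such genes therefore stood above the Y-linked share too, and how many did was not counted. What part the markers have in the members' falls was not tested.

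The difference between the experiments was tested over the 12 libraries as the log2 change in OTUB1_KD against NC minus the log2 change in SFD@M against Blank, so that a positive value means a smaller fall in OTUB1_KD. It was positive and called for 36 of 41 members and negative for 0, where 10.8% of all genes tested were called positive. The median over the members was 2.00, and Orc6, Gins3, Gins4, Rpa1 and Rrm1 were not called. By p the first 6 were Tk1 (3.90 ± 0.65, edgeR adjusted p = 0.00333), Mcm2 (2.58 ± 0.43, adjusted p = 0.00335), Tyms (2.01 ± 0.34, adjusted p = 0.00374), Rfc3 (1.91 ± 0.33, adjusted p = 0.00404), Mcm5 (3.56 ± 0.63, adjusted p = 0.00439) and Lig1 (2.06 ± 0.37, adjusted p = 0.00443). Mcm2 had 66.5, 24.8 and 68.7 CPM in OTUB1_KD against 112, 110.0 and 112 CPM in NC, and 11.6, 13.9 and 13.2 CPM in SFD@M against 163, 166 and 168 CPM in Blank. Rfc3, a clamp loader subunit, had 23.6, 11.2 and 21.1 CPM in OTUB1_KD against 36.2, 35.2 and 34.3 CPM in NC, and 7.05, 6.12 and 5.42 CPM in SFD@M against 43.2, 47.0 and 46.2 CPM in Blank. The value contains the difference between the controls, described next. SFD@M set directly against OTUB1_KD, in a fit of those 6 libraries, called 0 of 41 members by edgeR. Of all genes tested 0% were called lower and 0.0134% higher. At an unadjusted p under 0.05 were 38 members, against 2966 of 14914 genes tested. The median log2 fold change was -1.57 over the members and -0.02 over all genes tested.

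The control groups also differed, across experiments that were not run as a comparison. In Blank 37 members were higher than in NC, 1 was lower (Gins2, log2 -0.18 ± 0.05) and 3 were not called (Gins3, Gins4 and Rpa1), where 37% of all genes tested were called higher and 37.2% lower. The median log2 fold change was 0.32. Tyms differed most, at 197% of its NC level (log2 0.97 ± 0.04, edgeR adjusted p = 7.4e-33), before Mcm5 at 173%, Rrm2 at 157% and Tk1 at 151%. Libraries of these groups varied little, so small differences passed the test, and experiment and group cannot be told apart here.

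Each member's OTUB1_KD level was set against a mix of its mean NC level, weighted by the Y-linked share of the library, and its mean SFD@M level, weighted by the rest. This is a description with no test: the SFD@M libraries come from another experiment, and whether either weight is apt for the OTUB1_KD libraries was not tested. In OTUB1_KD replicate 1 the measured level was 1.14 times the mix at the median, from 0.814 for Rpa1 to 1.81 for Gins1, and 38 of 41 members lay within 1.5-fold. In replicate 2 the median was 1.52, from 1.09 for Pola1 to 3.34 for Tk1, with 18 within 1.5-fold and all 41 above the mix. In replicate 3 it was 2.04, from 0.893 for Gins4 to 4.88 for Mcm5, with 12 within 1.5-fold and 38 above. The order of the members in OTUB1_KD replicate 2 was close to that in SFD@M, with a Spearman's rho of 0.909 between their shares, against 0.498 for replicate 1 and 0.504 for replicate 3.

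**Figure D4:**
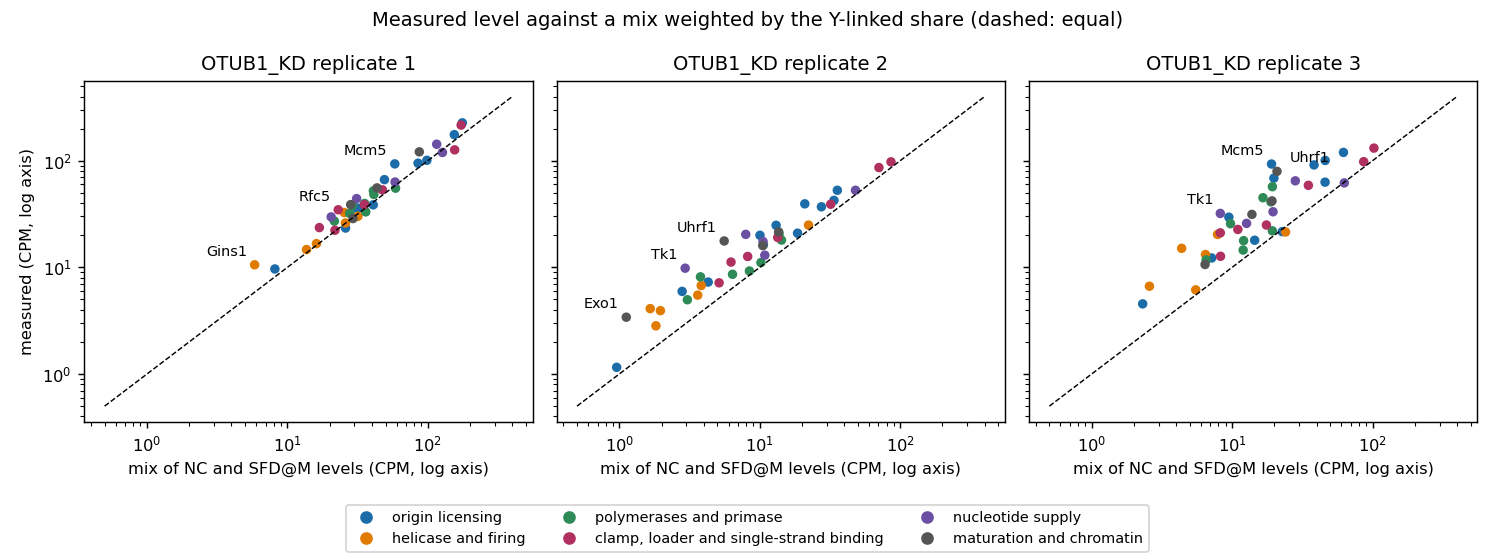
Measured CPM of the 41 members (vertical axis, log) in each OTUB1_KD library against the mix of NC and SFD@M levels weighted by the Y-linked share (horizontal axis, log), with colours for the roles and a dashed line at equality. Members lie near the line in replicate 1, at a median ratio of 1.14, and above it in replicates 2 and 3, at 1.52 and 2.04.

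The mean SFD@M level was next subtracted from both the OTUB1_KD level and the mean NC level. The first remainder, as a percentage of the second, differed among members in each library of the plotted mix. It ran from 24.4% (Rpa1) to 80.0% (Gins1) in OTUB1_KD replicate 1, from 0.858% (Pola1) to 17.3% (Rfc3) in replicate 2 and from -2.87% (Gins4) to 75.2% (Pold1) in replicate 3, with medians of 44.8%, 5.46% and 22.1%.

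Other genes of replication and nucleotide metabolism, 62 by a list that holds no member, moved less uniformly. Of these 45 fell, 6 rose and 11 were not called in OTUB1_KD (median log2 -1.34), and 54 fell, 6 rose and 2 were not called in SFD@M (median -2.22). Those with the smallest p among the falls were Rfc1, the large clamp loader subunit (-1.67 ± 0.25), Tipin, a fork protection factor (-2.16 ± 0.33), Paics, a purine synthesis enzyme (-1.67 ± 0.25), and Shmt1, a serine hydroxymethyltransferase of one-carbon metabolism (-1.72 ± 0.28), in OTUB1_KD. In SFD@M they were Cad, the enzyme that starts pyrimidine synthesis (-3.27 ± 0.05), Topbp1, a firing and checkpoint factor (-3.31 ± 0.05), Nasp, a histone chaperone (-2.86 ± 0.05), and Dbf4, the partner of the Cdc7 kinase (-4.14 ± 0.08). Of the genes that rose, Samhd1, which breaks deoxynucleotides down, had 324, 332 and 372 CPM in OTUB1_KD against 92.0, 87.4 and 91.2 CPM in NC (log2 1.86 ± 0.16, edgeR adjusted p = 9.9e-05), and 357, 283 and 340.0 CPM in SFD@M against 120.0 CPM in each Blank library (log2 1.41 ± 0.09, adjusted p = 1.8e-06). Tk2, the mitochondrial thymidine kinase, rose by log2 0.84 ± 0.19 and 1.39 ± 0.18, Pold4, the smallest polymerase delta subunit, by 1.02 ± 0.26 and 1.61 ± 0.10, and E2f2 by 0.79 ± 0.14 and 0.93 ± 0.08 in OTUB1_KD and SFD@M. The other E2F genes of the list, E2f1, E2f7 and E2f8, were called lower in both experiments. Their log2 fold changes were -1.38, -1.82 and -1.78 in OTUB1_KD and -3.33, -3.71 and -5.13 in SFD@M. Rrm2b, the reductase subunit used by resting cells in place of Rrm2, had 35.4, 40.5 and 19.3 CPM in OTUB1_KD against 29.1, 31.7 and 31.0 CPM in NC and was not called (log2 -0.02 ± 0.26, adjusted p = 0.948). In SFD@M it rose to 63.5, 51.4 and 55.1 CPM, against 22.4, 23.8 and 22.3 CPM in Blank (log2 1.27 ± 0.09, adjusted p = 3.5e-06), where Rrm2 fell. In TPM Rrm2b averaged 17.3 ± 1.66 and Rrm2 5.02 ± 2.94 in SFD@M, against 8.54 ± 0.287 and 395 ± 7.37 in Blank.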

How the data were processed

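Messenger RNA enriched with oligo(dT) was sequenced in 12 libraries, per the labels' protocols. The deposited table gives expected counts and TPM per transcript, estimated by the authors. Per the submitters' processing notes the tools were RSEM 1.3.1, Bowtie2 and DESeq2 1.4.5 and the build was GRCm39, with no role stated, and how the counting treated strand is not given in the sources used here. Near-identical copies of a gene can share reads, and such splits were not examined.

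Expected counts of 70659 transcripts were summed per Entrez gene and rounded. Symbols and promoters came from RefSeq tables of GRCm38.p6, which named 19155 of 19212 genes. Totals were 16062806 to 18028828 counts. CPM are per library total, and TPM were summed per gene. Columns of FPKM, normalized counts and averages were not used. Library replicate numbers and groups follow the titles and treatment labels.

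Comparisons of 3 against 3 libraries were fitted separately in R 4.3.3 by edgeR 4.0.16 (filterByExpr, TMM, robust glmQLFit and glmQLFTest), Benjamini-Hochberg adjusted over all genes tested, with a call at 0.05. SE is the log2 fold change over the square root of F, and it can be too small for a large fall to few counts. For the common share, libraries were scaled to the median ratio of the members to their control mean. The difference between the experiments was a contrast over all 12 libraries. Scripts were tested on simulated data. Alternatives were DESeq2 1.42.0 tests and size factors, library totals, no filter, limma 3.58.1 on log2(TPM + 1), a fit of all 12 libraries, a replicate block and leaving out each library.

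The members, the lists of other replication, mitosis and marker genes and the named-gene rule were chosen with earlier results of these data known. A listed marker is not reported here. The rule took, in each role, the 2 members of highest mean CPM, in each comparison the 3 largest and 3 smallest falls, members not called, the 6 smallest p of the difference between experiments, Gmnn, Rrm2 and Rrm2b, and 4 other genes per direction. Genes named beside a common share, a complex or a mix, and E2f1, E2f7 and E2f8, fall outside it and were chosen after their values were seen. The direct fits of SFD@M against OTUB1_KD and of Blank against NC were chosen after seeing the data.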

Additional observations from a re-analysis of the deposited data

Results flagged for a closer look

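The change in the libraries labelled OTUB1_KD against NC differed from the change in SFD@M against Blank by a test of the difference itself for 36 of the 41 members. The 6 of smallest p were Tk1, with a log2 change in OTUB1_KD against NC minus that in SFD@M against Blank of 3.90, Mcm2 with 2.58, Tyms with 2.01, Rfc3 with 1.91, Mcm5 with 3.56 and Lig1 with 2.06, each positive because the fall was smaller in OTUB1_KD. The fit pools the spread of all 12 libraries, while the OTUB1_KD libraries vary far more than the NC and Blank ones. No cause of the difference was tested.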

How the results depend on the processing

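In SFD@M against Blank all 41 members stayed called lower under every alternative run. In OTUB1_KD against NC the count of 37 became 41 by DESeq2, 40 with a replicate block and 40 on log2(TPM + 1), and it ran from 25 to 40 when a library was left out. The count of members above the common share in OTUB1_KD against NC, 1 as reported, became 2 with DESeq2 and 0 with a replicate block, and ran from 0 to 9 with a library left out; the count below it, 0 as reported, became 1 with DESeq2 and ran from 0 to 7. In the difference between the experiments the members called ran from 27 to 40 and all genes called from 2090 to 5523, against 3537 as reported, with a library left out, and the block gave 32 members. With the weight of the mix taken from the median member ratio in place of the Y-linked genes, the median ratio became 0.616 in OTUB1_KD replicate 2, against 1.52, and 0.761 in replicate 3, against 2.04. That weight is itself the members' median share and the SFD@M part is added to it, so by construction these ratios fall below 1 and check nothing about the mix. The causes of the other changes were not tested. Of the counts and medians, 88 values under other settings and 92 with a library left out stayed as reported, and 5 and 16 moved. A count stayed if it was within 1.5-fold of the reported one, so 25 members against 37 counts as unchanged. A median of the mix stayed if it was within the SD of the OTUB1_KD library medians. Of the calls of single genes, 17 were gained and 1 lost under other settings, and 26 were gained and 31 lost with a library left out. Tyms, Pold1 and Gins1 were called lower in OTUB1_KD with the replicate block (adjusted p = 0.0300, 0.0237 and 0.0327), on log2(TPM + 1) and in the fit of all 12 libraries, which also called Mcm5. Deviations of same-numbered libraries from their group mean correlated at -0.00393 to 0.0348 in the first experiment and 0.000777 to 0.00675 in the second. The NC and Blank libraries differed so little among themselves that these values cannot show whether the libraries were paired. Members below about 2 CPM in SFD@M, such as Exo1 and Orc1, rest on few counts there.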
